A study of Mus musculus with 6 samples.

Results

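The mouse podocyte line MPC5 was examined for 9 genes of the complement system and its control: C3, Cfb, C1ra, C1s1, Cd55, Cd59a, Cr1l, Serping1 and Clu. They were taken by symbol from a table of read counts, which held all 9 of them among 21719 genes. In the GRCm38 annotation C3 and Cfb lie on chromosome 17, C1ra and C1s1 on chromosome 6, Cd55 and Cr1l on chromosome 1, Cd59a and Serping1 on chromosome 2, and Clu on chromosome 14. RNA had been sequenced from 6 libraries in 2 groups of 3, titled Setdb2WT and Setdb2KO, and every library of both groups came from MPC5 cells given high glucose. MPC5 is an immortalised cell line made from mouse podocytes, the cells that wrap the glomerular capillaries of the kidney. The labels do not say how Setdb2 was edited, whether the Setdb2KO cells are a clone, or whether libraries within a group stem from different cultures. P-values therefore measure only the spread between these libraries, which may be technical.

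Complement is a cascade of plasma proteins that marks surfaces for removal. It starts when C1 binds antibody (classical arm), when lectins bind sugars, or when C3 reacts on its own and pairs with factor B (alternative arm). All routes meet at the cleavage of C3 and can end in a pore through the membrane. Host cells limit the cascade with membrane proteins and secreted inhibitors. Podocytes face plasma proteins that cross the capillary wall, and complement regulation in the glomerulus is a recurrent theme of kidney disease.

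The libraries held 36461449 to 37129174 reads each. Setdb2, the edited gene, did not fall in the Setdb2KO-labelled libraries: it had 12, 10 and 9 reads with the Setdb2WT label and 17, 15 and 25 with the Setdb2KO label (adjusted p = 0.0881, edgeR's quasi-likelihood test). The groups are therefore called by their labels, and "rose" and "fell" mean higher or lower in the Setdb2KO-labelled libraries. Since the labels do not say how Setdb2 was edited, its read counts cannot test the knockout. Whether the labels were exchanged cannot be settled from these data either, and an exchange would turn every direction given. Among podocyte markers, Wt1 had 0 to 2 reads in every library, while Podxl fell from 50.5 ± 1.6 to 4.96 ± 0.38 CPM (SD, n = 3 each). CPM is a share of the library's counts, scaled between libraries by edgeR's TMM factors. Nphs1 was listed but had no row in the table. Of the 7 podocyte markers in the table, 6 were tested, 2 rose and 3 fell. Summed markers of other kidney cells were lower in the Setdb2KO-labelled libraries: parietal epithelium held 3049 to 3091 CPM against 1069 to 1152, proximal tubule 598 to 600 against 149 to 159, mesangium and fibroblasts 128 to 135 against 33.1 to 35.5, and endothelium 9.67 to 10.2 against 6.31 to 7.57. Of the markers tested, 5 of 6, 2 of 3, 6 of 6 and 2 of 3 fell in these lists, beside 42.3% of all genes tested. The other tested markers of these lists rose: Pax8 1.33-fold, Cubn 1.68-fold and Esam 6.47-fold. Aqp1 alone held 468 CPM against 51.7 CPM of the proximal tubule sum. The part of these markers in the complement values was not tested. All libraries came from the MPC5 line, so these lists name genes and do not show that cells of these types were present. In a bulk sample, fewer cells of a type and less RNA per cell cannot be told apart.

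Complement transcripts were scarce in these cells, and 4 of the 6 that could be tested did not pass. Clu, the gene of the secreted chaperone clusterin, fell 2.50-fold, and C3, the central component, fell 1.29-fold. Cr1l, Cd55, Cd59a and C1ra were tested and did not pass. Cfb, Serping1 and C1s1 had too few reads to be tested. Of the 6 members tested, 0 rose and 2 fell at an adjusted p of 0.05 (edgeR's quasi-likelihood test, Benjamini-Hochberg adjusted over all genes tested), against 83.8% of all 13509 genes tested. By direction, 41.5% of all genes tested rose and 42.3% fell. Among the 4860 genes tested whose mean CPM lay between those of the lowest and the highest tested member, 78.0% passed. The 6 tested members had a median log2 fold change of -0.36, against 0.0045 over all genes tested. Of these 6, 1 changed at least 2-fold, as did 32.6% of all genes tested, and 4 had scaled values that did not overlap between the groups, against 84.6%. With library totals as the only scaling 2 of the 6 did not overlap, against 85.1%. These shares are descriptions of 6 genes.

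**Figure D1:**
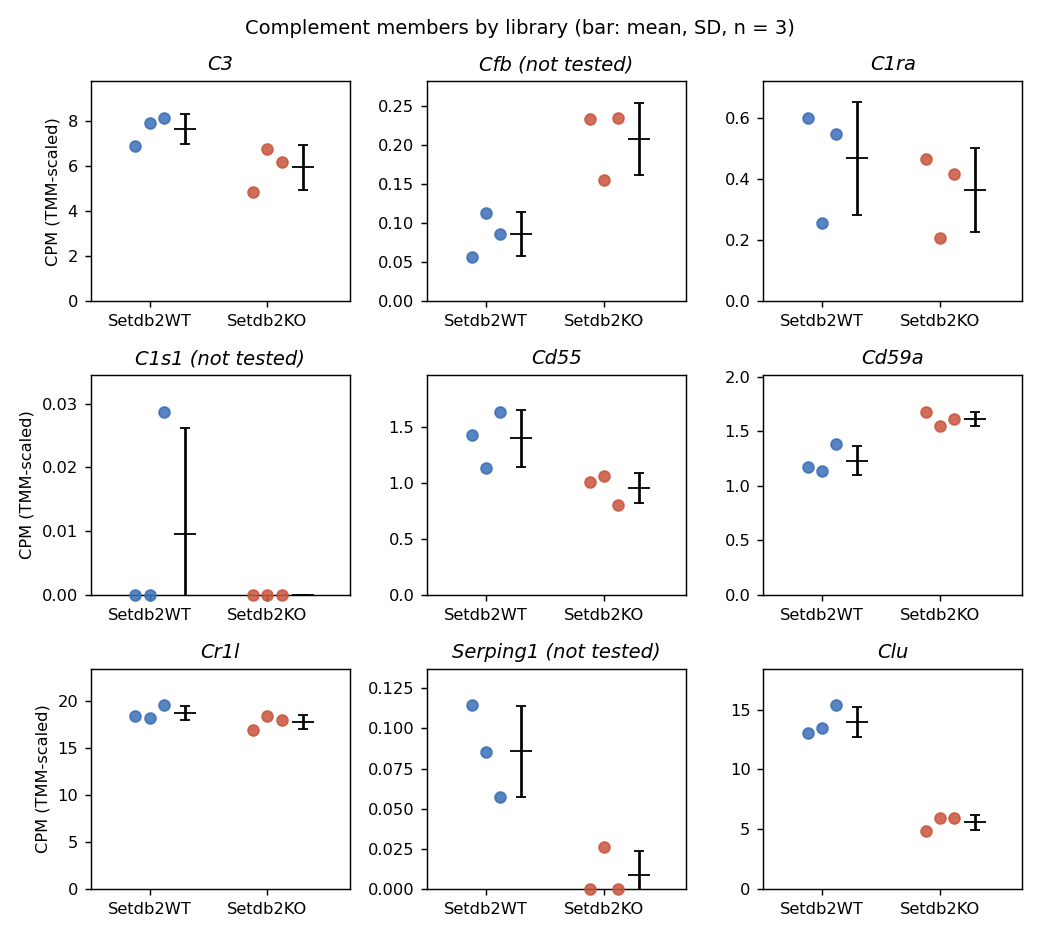
Level of each of the 9 genes in every library, in TMM-scaled CPM on a linear axis from 0, with a panel for each gene. Points are libraries, and the bar beside them is the mean with its SD (n = 3). Clu separates the groups most clearly among the tested genes, and the Cr1l and C1ra libraries of both groups overlap.

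C3 encodes the protein at which all activation routes meet. Its counts were 241, 280 and 284 reads in the Setdb2WT-labelled libraries and 188, 263 and 238 in the Setdb2KO-labelled ones. The read counts of the groups overlapped, but after TMM scaling they no longer did: 6.89, 7.94 and 8.16 CPM against 4.86, 6.79 and 6.20 CPM. The means were 7.67 ± 0.68 and 5.95 ± 0.99 CPM (SD, n = 3 each). The log2 fold change was -0.37 (SE 0.13; 95% interval -0.64 to -0.087; adjusted p = 0.0174 in edgeR's quasi-likelihood test). The spread between Setdb2KO-labelled libraries, 38.2 reads (SD), was larger than the 15.2 reads that counting alone gives. The call was lost without Setdb2KO replicate 1, the lowest C3 library (log2 fold change -0.24, adjusted p = 0.0891), without Setdb2WT replicate 2 (adjusted p = 0.0519) and without Setdb2WT replicate 3 (adjusted p = 0.0611). It was also lost under total-count scaling (log2 fold change -0.21, adjusted p = 0.140, edgeR), which leaves the groups' C3 values overlapping. Over the 6 libraries left out in turn the adjusted p ran from 0.00175 to 0.0891.

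The 250 bases before the annotated start of C3 are printed because the levels of C3 and of the NF-kB subunit Rela are set side by side further on. They lie at chr17:57228137-57228386 on the minus strand of GRCm38.p6 (RefSeq), and are written 5′ to 3′ with every match to a loose NF-kB pattern in capitals, overlapping matches joined.
C3: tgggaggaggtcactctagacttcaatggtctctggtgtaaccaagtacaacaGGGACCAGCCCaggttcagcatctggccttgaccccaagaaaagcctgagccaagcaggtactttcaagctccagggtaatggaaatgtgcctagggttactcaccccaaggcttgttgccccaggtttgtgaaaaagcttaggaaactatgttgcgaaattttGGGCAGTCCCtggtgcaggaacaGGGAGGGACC
The pattern was GGG and CC with 5 bases of any kind between them, on either strand, and 45.8% of 32851 promoter windows of the same length hold it. Of the 9 members, 6 had a window in the RefSeq table, and 5 of these 6 had a match: C3, Cd55, Cd59a, Cr1l and C1s1. C1s1 had 2 annotated starts, and only the window of the second held a match. The 45.8% counts windows, while the 5 of 6 counts genes with a match at any start. No member window held the C/EBP pattern TTGCNNCAA (1.74% of all windows) the STAT pattern TTCNNNGAA (7.02%), the heat-shock pattern GAANNTTC (6.69%) or the E-box form TCACGTGA (0.785%). The interferon pattern, GAAA and GAAA with 2 bases between (2.98%), was found in the Cd59a window alone among the 6, as GAAAGGGAAA from -187 to -178 relative to the start. Such matches describe letters and do not show that a factor binds.

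Factor B, the product of Cfb, supplies the protease of the alternative arm. Cfb had 2, 4 and 3 reads in the Setdb2WT-labelled libraries and 9, 6 and 9 in the Setdb2KO-labelled ones. Every Setdb2KO-labelled library was above all 3 of the other group, but the gene did not reach the minimum count for testing. The ratio of summed reads, scaled by library size, was 2.42 (exact Clopper-Pearson 95% interval 1.09 to 5.91, for counting error only). With no filter on low counts its log2 fold change was 1.23 (adjusted p = 0.135, edgeR), and the DESeq2 Wald test gave 1.29 (adjusted p = 0.212). In the GENCODE M21 annotation of GRCm38, 79.5% of the exon bases of Cfb also belong to the overlapping model Gm20547 on the same strand, which runs into the neighbouring gene C2. How reads in that overlap were assigned is not given in the sources used here.

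C1ra and C1s1 encode the paired serine proteases of C1, which cleave the next components of the classical arm. C1ra had 21, 9 and 19 reads against 18, 8 and 16, so the groups overlapped throughout. Its level was 0.467 ± 0.19 and 0.363 ± 0.14 CPM (SD, n = 3 each), with a log2 fold change of -0.36 and a wide 95% interval of -1.30 to 0.57 (adjusted p = 0.443, edgeR's quasi-likelihood test). C1s1 had 1 read in all, in Setdb2WT replicate 3. The count of 0 in the Setdb2KO-labelled libraries allows up to 0.0259 CPM, taking 3 reads over the group as the limit. The mouse genome carries a second copy of each gene, C1rb and C1s2. C1rb had 49, 52 and 41 reads against 49, 82 and 75, with overlapping groups (log2 fold change 0.40; adjusted p = 0.142 in edgeR's test), and passed under total-count scaling (adjusted p = 0.0478) and without Setdb2KO replicate 1 (adjusted p = 0.0305). C1s2 had 2, 5 and 3 reads against 0, 2 and 3.

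The start of the C1ra and C1rb coding sequences (GENCODE M21 transcripts, longest open reading frame, 5′ to 3′) shows how alike the copies are. The first 90 bases differ at 1 position, in capitals:
C1ra: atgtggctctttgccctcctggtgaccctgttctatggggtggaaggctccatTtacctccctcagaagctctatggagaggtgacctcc
C1rb: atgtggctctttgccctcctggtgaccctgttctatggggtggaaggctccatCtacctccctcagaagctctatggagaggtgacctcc
The longest run that both share without a difference is 757 bases, from coding base 212 to 968. Of all 100-base windows of the longest C1ra transcript, 34.5% also occur in C1rb, so the split of reads between the copies is uncertain. The sum over both copies was 70, 61 and 60 reads against 67, 90 and 91, or 1.82 ± 0.16 and 2.14 ± 0.36 CPM (SD, n = 3 each), and the groups overlapped. C1s1 shares 7.90% of its windows with C1s2.

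The membrane regulators among the members were Cr1l, Cd55 and Cd59a. Cr1l, known as Crry, is the broadly expressed rodent cofactor that helps inactivate C3b on host membranes. It had the most reads of the 9 members, 645, 641 and 680 against 654, 713 and 689. After scaling the groups overlapped, at 18.7 ± 0.72 and 17.8 ± 0.77 CPM (SD, n = 3 each). The log2 fold change was -0.076 with a 95% interval of -0.22 to 0.066 (adjusted p = 0.294, edgeR's quasi-likelihood test), and under total-count scaling its sign turned, to 0.078. For comparison, the median absolute log2 fold change of all tested genes was 0.66, outside that interval.

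Cd55, decay-accelerating factor, takes C3 convertases apart. Its counts were 50, 40 and 57 in the Setdb2WT-labelled libraries and 39, 41 and 31 in the Setdb2KO-labelled ones. The scaled values did not overlap, at 1.43, 1.13 and 1.64 against 1.01, 1.06 and 0.808 CPM, but did under total-count scaling. The log2 fold change of -0.55 (SE 0.25) had an adjusted p of 0.0561 in edgeR's quasi-likelihood test and so did not pass. It passed without Setdb2WT replicate 2, its lowest library in that group (log2 fold change -0.69, adjusted p = 0.0300), and under a filter asking for 1 CPM in 3 or more libraries (adjusted p = 0.0474). Over the 6 libraries left out in turn the adjusted p ran from 0.0300 to 0.172.

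Cd59a carries the membrane anchor protein that blocks the final pore. It had 41, 40 and 48 reads against 65, 60 and 62, and every Setdb2KO-labelled library was above every Setdb2WT-labelled one. The means were 1.23 ± 0.13 and 1.62 ± 0.065 CPM (SD, n = 3 each; log2 fold change 0.39, SE 0.22, adjusted p = 0.105 in edgeR's quasi-likelihood test). Under total-count scaling it passed, with a log2 fold change of 0.55 (adjusted p = 0.0297). Its neighbour and copy Cd59b, outside the 9 and named here after its values were seen, had 4, 5 and 0 reads against 13, 11 and 17. It passed the test with a log2 fold change of 2.01 (SE 0.64; adjusted p = 0.00867, edgeR). Whether the copies differ from each other in their change was not tested.

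The first 90 coding bases of Cd59a and Cd59b are shown because this pair shares far less sequence than C1ra and C1rb. They differ at 4 positions, in capitals:
Cd59a: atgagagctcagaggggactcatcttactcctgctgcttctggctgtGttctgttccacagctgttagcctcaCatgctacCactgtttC
Cd59b: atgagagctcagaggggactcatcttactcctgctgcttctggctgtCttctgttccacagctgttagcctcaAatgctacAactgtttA
No identical run within the coding sequences is longer than 47 bases, and 0.293% of the 100-base windows of Cd59a occur in Cd59b. Added together, the copies had 45, 45 and 48 reads against 78, 71 and 79, which is 1.31 ± 0.057 and 1.97 ± 0.12 CPM (SD, n = 3 each). The groups did not overlap in this sum, which was 1.498 times higher in the Setdb2KO-labelled libraries and was not tested.

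Of the secreted regulators, Clu showed the clearest difference of all members. Clusterin binds terminal complement complexes and keeps them from inserting, besides acting as a chaperone outside cells. Clu had 457, 473 and 534 reads in the Setdb2WT-labelled libraries and 188, 231 and 226 in the Setdb2KO-labelled ones, with a wide gap between the groups. The means were 13.9 ± 1.2 and 5.57 ± 0.62 CPM (SD, n = 3 each), and the log2 fold change was -1.32 (SE 0.10; 95% interval -1.55 to -1.10; adjusted p = 2.7e-08, edgeR's quasi-likelihood test). Clu was the 1 member that fell at least 2-fold, where 16.2% of all tested genes did. It passed under every scaling, tool, filter and left-out library that was tried, and also against a limit of 1.5-fold.

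Serping1 encodes the C1 inhibitor, which stops the proteases of C1 and of the lectin arm. It had 4, 3 and 2 reads in the Setdb2WT-labelled libraries and 0, 1 and 0 in the Setdb2KO-labelled ones. No library of the latter reached the lowest of the former. The ratio of summed reads was 9.92 in favour of Setdb2WT, with an exact 95% interval of 1.38 to 435 for counting error. It was below the minimum count for testing, and with no filter its log2 fold change was -2.90 (adjusted p = 0.0553, edgeR). The DESeq2 Wald test gave -3.19 (adjusted p = 0.119).

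**Figure D2:**
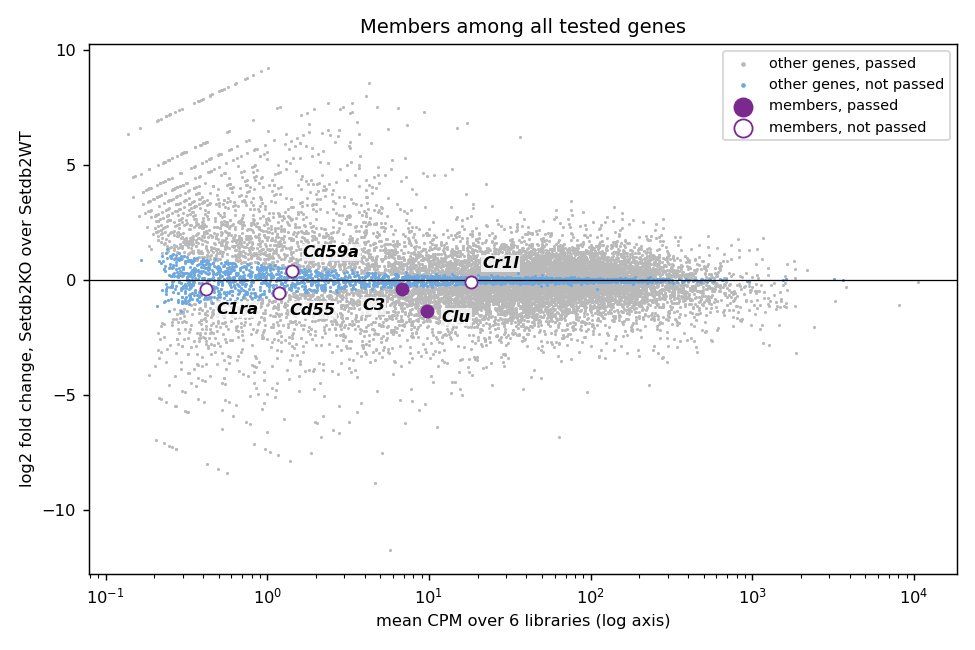
Log2 fold change of every tested gene, Setdb2KO over Setdb2WT, against its mean CPM over 6 libraries on a log axis. Grey points passed edgeR's test, blue points did not, and the 6 tested complement genes are marked in purple, filled where they passed. All 6 lie left of the median tested gene (29.0 CPM), and only Clu is more than 2-fold from no change.

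Set against other genes, the members were expressed at low levels. Cr1l stood at the 41.3 percentile of tested genes by mean CPM, Clu at 32.4, C3 at 28.5, Cd59a at 15.2, Cd55 at 13.9 and C1ra at 5.29. Levels of different genes were compared as CPM per kilobase of the longest coding transcript in GENCODE M21. In the Setdb2WT-labelled libraries the order was Clu (7.71 ± 0.68), Cr1l (6.75 ± 0.26), C3 (1.49 ± 0.13), Cd59a (0.681 ± 0.073), Cd55 (0.553 ± 0.10) and C1ra (0.157 ± 0.062 CPM per kilobase; SD, n = 3). Clu and Cr1l exchanged places in the Setdb2KO-labelled libraries, where Cr1l had 6.40 ± 0.28 and Clu 3.08 ± 0.34 CPM per kilobase. In neither group did their libraries overlap on this scale. The libraries of Cd59a and Cd55 overlapped in the Setdb2WT-labelled ones, at 0.628 to 0.764 against 0.448 to 0.647, and did not in the Setdb2KO-labelled ones, at 0.858 to 0.930 against 0.319 to 0.418 CPM per kilobase. C3 and Cd59a came close to each other there, with lowest and highest libraries of 0.946 and 0.930. Serping1 (0.0485), Cfb (0.0311) and C1s1 (0.00325) closed the order in the Setdb2WT-labelled libraries, Serping1 and Cfb with overlapping libraries. Their order in the Setdb2KO-labelled ones was Cfb (0.0754), Serping1 (0.00487) and C1s1 (0), and the libraries of Cfb overlapped those of C1ra.

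**Figure D3:**
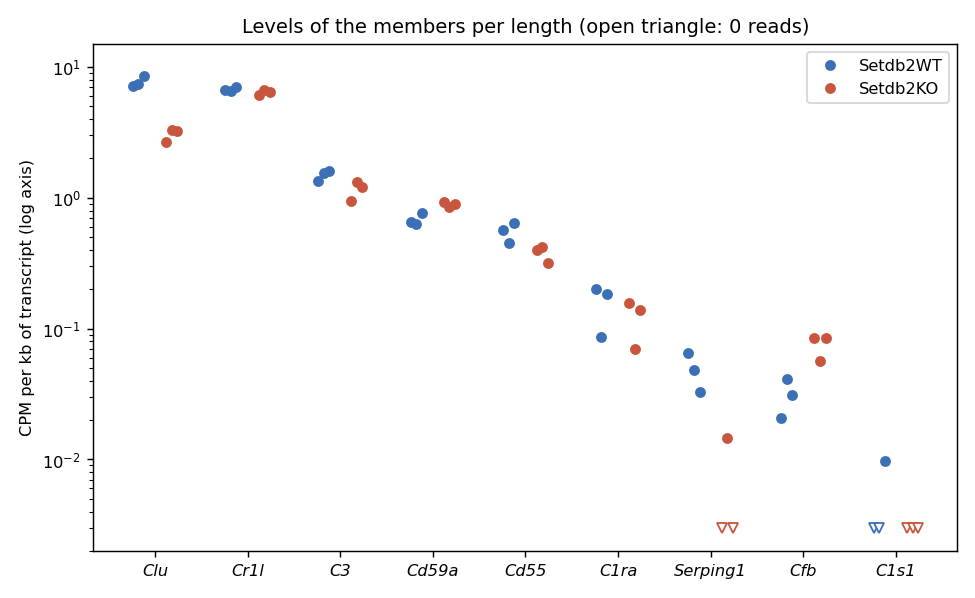
CPM per kilobase of transcript for the 9 genes in each library, on a log axis and ordered by the Setdb2WT mean. Open triangles mark libraries with 0 reads, drawn at a fixed height. Clu is above Cr1l in the Setdb2WT-labelled libraries and below it in the Setdb2KO-labelled ones.

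Summed over the 9 genes, the Setdb2WT-labelled libraries held 43.6 ± 2.8 CPM and the Setdb2KO-labelled ones 32.4 ± 2.2 CPM (SD, n = 3 each). The 5 regulators (Cd55, Cd59a, Cr1l, Serping1 and Clu) made up 35.4 ± 2.2 and 25.9 ± 1.3 CPM of this. The 4 components (C3, Cfb, C1ra and C1s1) made up 8.23 ± 0.64 and 6.52 ± 0.85 CPM. Regulator reads thus exceeded component reads in both groups, with Clu accounting for most of the difference in the sum.

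The protein-coding genes whose mean-centred log2 CPM over the 6 libraries lay closest to that of C3 included Dram1 and Fmc1. Their Euclidean distances were 0.15 and 0.19, out of 9932 genes averaging 5 CPM or more. Both fell slightly, with log2 fold changes of -0.30 and -0.38. The distance includes the difference between the groups, so a fold change near that of C3 follows from the choice.

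Of 61 listed complement genes proper, 52 were outside the 9 members, and 32 of these 52 were in the table. No gene in the table was without reads, so a listed gene without a row may have had none or may stand under another symbol. Only 13 had enough reads to be tested. Of these 13, 3 rose and 8 fell while 2 did not pass, a share of 84.6% that is close to the 83.8% of all genes. Their median log2 fold change was -1.05. The other 19 had at most 13 reads in any library. All 4 terminal components in the table (Hc, C8a, C8g and C9) were among these, with at most 12 reads.

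Among activators, Cfp and C2 moved up while Masp1 moved down. Cfp, properdin, which stabilises the C3 convertase of the alternative arm, rose 3.70-fold. Its counts were 194, 212 and 182 against 849, 791 and 759, or 5.60 ± 0.39 and 20.7 ± 1.1 CPM (SD, n = 3 each; log2 fold change 1.89, SE 0.085, adjusted p = 4.7e-11, edgeR's quasi-likelihood test). C2, which supplies the protease of the classical and lectin convertase, had 68, 56 and 40 reads against 147, 156 and 153, a 2.52-fold rise (adjusted p = 1.3e-05, edgeR). In GENCODE M21, 42.8% of its exon bases belong also to Gm20547. Masp1, a protease of the lectin arm, fell 3.24-fold, its mean going from 3.53 ± 0.776 to 1.09 ± 0.0735 CPM (adjusted p = 3.3e-06, edgeR). At lower levels, and named after their values were seen, C4b fell 2.29-fold and C1rl, a relative of C1r, 2.11-fold. C4b has a near-identical copy, C4a, that was listed but had no row in the table. C1rl lost its call without Setdb2WT replicate 1, Setdb2KO replicate 1 or Setdb2KO replicate 2 (adjusted p 0.0911, 0.0564 and 0.0932) and with DESeq2 (0.0549).

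Of the fluid-phase regulators 3 were tested and all 3 fell, beside 42.3% of all genes tested. Besides Clu these were C4bp, which binds C4b and helps degrade it, and Cpn1, the catalytic subunit of carboxypeptidase N, which trims the anaphylatoxins. C4bp had 246, 226 and 213 reads against 55, 57 and 72 and fell 4.10-fold (adjusted p = 1.2e-08, edgeR). Cpn1 had 266, 325 and 331 reads against 69, 42 and 49 and fell 6.34-fold (adjusted p = 2.4e-09, edgeR). Susd4, a membrane regulator with sushi domains, had 8.98 ± 0.972 CPM against 4.32 ± 0.576 CPM and fell 2.08-fold.

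**Figure D4:**
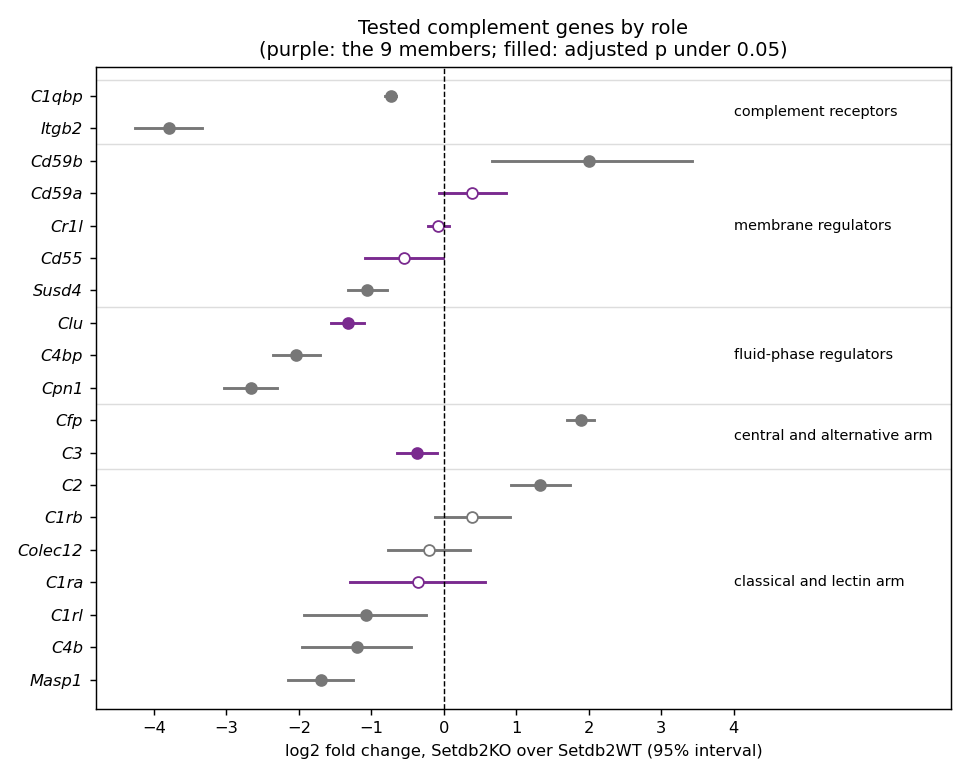
Log2 fold change with its 95% interval for the 19 tested complement genes, grouped by role. Purple marks the members and grey the others, and filled circles passed at an adjusted p of 0.05. The 3 fluid-phase regulators lie left of 0, while the membrane regulators lie on both sides.

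The receptor genes held the largest fall and a gain from 0. Itgb2, the beta chain shared by the leukocyte complement receptors, fell 13.8-fold, from 212, 214 and 205 reads to 24, 13 and 13 (log2 fold change -3.79, SE 0.21, adjusted p = 5.3e-10, edgeR). Itgam, its partner chain in complement receptor 3, was named after its values were seen. It had 0 reads in every Setdb2WT-labelled library and 12, 9 and 13 in the Setdb2KO-labelled ones, which is at least 10.3-fold higher against a limit of 3 reads over the group. That bound leaves out the counting error of the 34 reads, and the exact 95% interval of the ratio starts at 7.91. In GENCODE M21, 68.7% of its exon bases belong also to the model Gm49368 on the same strand. Of 10 listed markers of macrophages and other leukocytes, 9 were in the table, and their summed level was 26.0 to 27.6 CPM against 15.9 to 18.8 CPM. Of the 4 tested, 1 rose and 2 fell. Cd14 had 11.95 ± 0.105 CPM against 6.00 ± 0.228, Csf1r 9.74 ± 0.351 against 5.24 ± 0.55, and Cd68 4.50 ± 0.589 against 5.63 ± 0.816 (SD, n = 3 each). Ptprc, which marks leukocytes, had 4, 5 and 5 reads against 0, 0 and 0, and Tyrobp 0 reads in all but 1 library. Their part in the receptor values was not tested. C1qbp, a mainly mitochondrial protein that also binds C1q, had 267 ± 2.77 CPM against 161 ± 7.28 CPM and fell 1.66-fold.

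Inflammatory and stress signals are known to drive complement genes, and a list of 12 such receptors and factors was followed beside the members. All 12 were tested: 3 rose, 8 fell and Cebpd did not pass (adjusted p = 0.0614, edgeR). The 91.7% that passed compare with 83.8% of all genes tested. Their median log2 fold change was -0.19. Under total-count scaling 5 rose and 4 fell. Rela, the NF-kB subunit, rose 1.78-fold from 191 ± 2.7 to 341 ± 13 CPM, and Cebpb, a factor of the acute-phase response, had 58.5 ± 0.75 against 135 ± 5.7 CPM and rose 2.31-fold. Ifngr1, the ligand-binding chain of the interferon gamma receptor, fell 3.29-fold, and Stat3, which carries the IL-6 signal, fell 1.33-fold. These 4 passed at adjusted p from 1.2e-14 to 4.7e-07 (edgeR). C3 fell 1.29-fold in the same libraries, and Cfb had 24 summed reads against 9. Whether any of these factors acts on the members was not tested. Of the others, Nfkb1 rose 1.11-fold, and Irf1, Osmr, Ifngr2, Hsf1 and Il6st fell 1.06-fold to 1.44-fold. Of these, the fall of Ifngr2 and Hsf1 did not pass under total-count scaling, and the sign of Il6st turned there, to 0.075, which passed as a rise (adjusted p = 0.0288, edgeR). Il6st lost its call without Setdb2KO replicate 1 (adjusted p = 0.0834) or Setdb2KO replicate 3 (adjusted p = 0.0672). It also lost it with size factors from DESeq2 (0.0707), upper-quartile scaling (0.0636) and the DESeq2 Wald test (0.0842).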

How the data were processed

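Total RNA of 6 MPC5 samples was taken with TRIzol and sequenced from VAHTS Universal V6 libraries, per the labels' protocols. Whole-number read counts by gene symbol were deposited by the authors; the submitters' processing notes name fastp, HISAT and HTSeq, with GRCm39 as the build. Software versions, gene models and strandedness were not given in the sources used here, so overlapping, antisense or duplicated genes are uncertain. Columns were matched to samples by genotype and number.

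Counts were tested with edgeR 4.0.16 in R 4.3.3 (quasi-likelihood test, TMM, filterByExpr with a minimum count of 10, no covariate besides genotype, Benjamini-Hochberg over 13509 genes). Fold changes have a prior count of 0.125. CPM is scaled by TMM factors. With 36461449 to 37129174 reads per library, genes of a few reads carry wide counting error. Same-group libraries were further apart than sampling noise (chi-square per degree of freedom 2.55 to 15.7), so none was merged. Scripts were tested on simulated data with 200 genes changed, as many up as down. That is far fewer than passed here, so the simulation does not cover the choice of scaling.

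The 9 members, the lists and the promoter patterns were chosen with earlier results of these data known. Named genes were the members, listed genes that passed with a mean CPM of at least 1 in a group, the 3 genes nearest to C3, and Setdb2. A few genes that this rule or the lists hold are not reported here. Transcripts come from GENCODE M21 and promoter windows from RefSeq, both on GRCm38, which is not the authors' build; sequences for Clu, Cfb and Serping1 are not printed.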

Additional observations from a re-analysis of the deposited data

How the results depend on the processing

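The results were recomputed with upper-quartile scaling, size factors from DESeq2, total counts, limma-voom (limma 3.58.1), DESeq2's own Wald test (version 1.42.0), no filter, a stricter filter (1 CPM in 3 or more libraries), a limit of 1.5-fold with glmTreat, the replicate number as a block, and each library left out. Total counts alone moved the median log2 fold change of all tested genes by 0.15; the other scalings moved it by at most 0.021. Under total counts, 1 member rose (Cd59a, 0.55) and 1 fell (Clu), 5 inducers rose and 4 fell, C3 was -0.21 and no longer passed, and Cr1l turned to 0.078; Il6st turned to 0.075. Under the stricter filter Cd55 passed at -0.52. Against 1.5-fold, 6137 genes were called, 3019 higher and 3118 lower; 1 member was called, Clu, and it was lower; C3 (-0.37) was not; 3 inducers were called, 1 of them lower. With 1 library left out, 1 to 2 members were called, all of them lower, C3 ranged from -0.47 to -0.24 and Cd55 from -0.69 to -0.43. Replicate numbers did not pair the libraries (correlation of deviations -0.0027, -0.032 and -0.0038), and with the replicate block 11190 genes and the same number of members, 2, were called, with C3 at an adjusted p of 0.00832 (edgeR). Cfb and Serping1 could be tested without the filter and with DESeq2, and C1s1 without the filter; none of them passed.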
